A study of Mus musculus with 15 samples.

Results

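The macrophage genes of mouse skeletal muscle described here are Adgre1, Cd68, Csf1r, Itgam, Mrc1, Lyve1, Cd163, C1qa, C1qb and C1qc, 10 of the 55536 genes measured, chosen by name as genes of tissue-resident macrophages. They were read by poly(A) RNA sequencing of skeletal muscle from 15 mice labelled male and aged 2 months, 5 in each of 3 groups; 1 knockout library goes against the male label, as given with the depths. The control mice are labelled wild type. The second group is labelled as a knockout of Pdgfrb, and the third as carrying Pdgfrb D489V, a receptor that the series' design text calls constitutively active. The same text describes both changes as myogenin specific; myogenin is a transcription factor of differentiating muscle cells. The labels do not name the muscle, the strain, the litters or the batches, nor whether control mice carried the recombinase, and nothing says that samples numbered alike belong together. p-values measure the spread between these samples only.

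Resident macrophages of muscle lie between the fibres, where they clear debris, take up haemoglobin and matrix fragments and shape repair. Their survival depends on CSF1R, the receptor for the growth factors CSF1 and IL-34. Many of them carry the scavenging receptors MRC1, LYVE1 and CD163, and macrophages are the main source of C1q, the recognition unit of the classical complement pathway, built from the products of C1qa, C1qb and C1qc.

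All 10 genes were detected in all 15 samples, and none differed between groups beyond the spread of the samples. Of the 10, 0 passed limma's threshold (Benjamini-Hochberg adjusted p under 0.05 over all genes tested) in knockout against control, where 0.00656% of genes did, 0 in D489V against control, where 0.0587% did, and 0 in knockout against D489V, where 20.8% did. None had an unadjusted limma p under 0.05 either, against 15.1%, 9.43% and 37.7% of all genes tested. For 0 of the 10 genes did 2 groups fail to overlap in any comparison, while that held for 2.24%, 2.16% and 13.9% of genes. Without knockout replicate 3, 1 of the 10, C1qa, passed in knockout against D489V.

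The values are normalized gene counts in whole numbers, with sums of 29815559 to 36489777 per sample, and 20799 to 23783 genes above 0. Pdgfrb, the targeted gene, was 1754 ± 72.9 (SD, n = 5) in control, 1308 ± 266 (SD, n = 5) in knockout and 906 ± 106 (SD, n = 5) in D489V. The lower level in knockout did not pass the correction (limma adjusted p = 0.294), and that in D489V did (limma adjusted p = 0.00168). The muscle fibre genes Myh4, Acta1 and Tnnt3 held the highest levels of the fibre list, whose 6 genes summed to 4871920 to 6992269 per sample. Knockout replicate 3, labelled male, held 3165 normalized counts of Xist, the transcript of the inactive X chromosome, against at most 101 elsewhere. Control replicate 5 and knockout replicates 3, 4 and 5 held 174 to 482 normalized counts of Glycam1, a gene of lymph node venules, against at most 33 in the other samples. Lymph nodes hold macrophages of their own, so results are given with and without these libraries where they differ.

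Per kilobase of annotated exon, C1qa was the most abundant of the 10, at 315 ± 65.9 normalized counts per kb (SD, n = 15). C1qb followed at 273 ± 68.8, then C1qc at 122 ± 25.3, Mrc1 at 79.4 ± 16.1, Csf1r at 64 ± 18.9 and Cd68 at 61.7 ± 16.6 (SD, n = 15). Lyve1 was at 43.5 ± 12.4, Cd163 at 35.7 ± 10.2, Adgre1 at 16.9 ± 5.64 and Itgam at 6.22 ± 1.47 (SD, n = 15). Among neighbours in this order, Csf1r exceeded Cd68 in 9 of 15 samples and Lyve1 exceeded Cd163 in 11 of 15. These orders held in the fewest samples, and differences in level between the genes were not tested. C1qb over C1qc, Cd163 over Adgre1 and Adgre1 over Itgam held in 15 of 15 samples. The other neighbours, C1qa over C1qb, C1qc over Mrc1, Mrc1 over Csf1r and Cd68 over Lyve1, held in 13 or 14 of 15. This order depends on the annotated exon length, 1040 bases for C1qa, 1088 for C1qb and 1931 for C1qc. In normalized counts not divided by length, Mrc1 had the highest mean of the 10, at 506. C1qa, C1qb and C1qc then had 327, 297 and 236, and the ratio of C1qb to C1qc ran from 0.97 to 1.47. In bulk tissue a higher or lower value can mean more or fewer cells, or more or less RNA per cell, and these cannot be told apart.

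**Figure D1:**
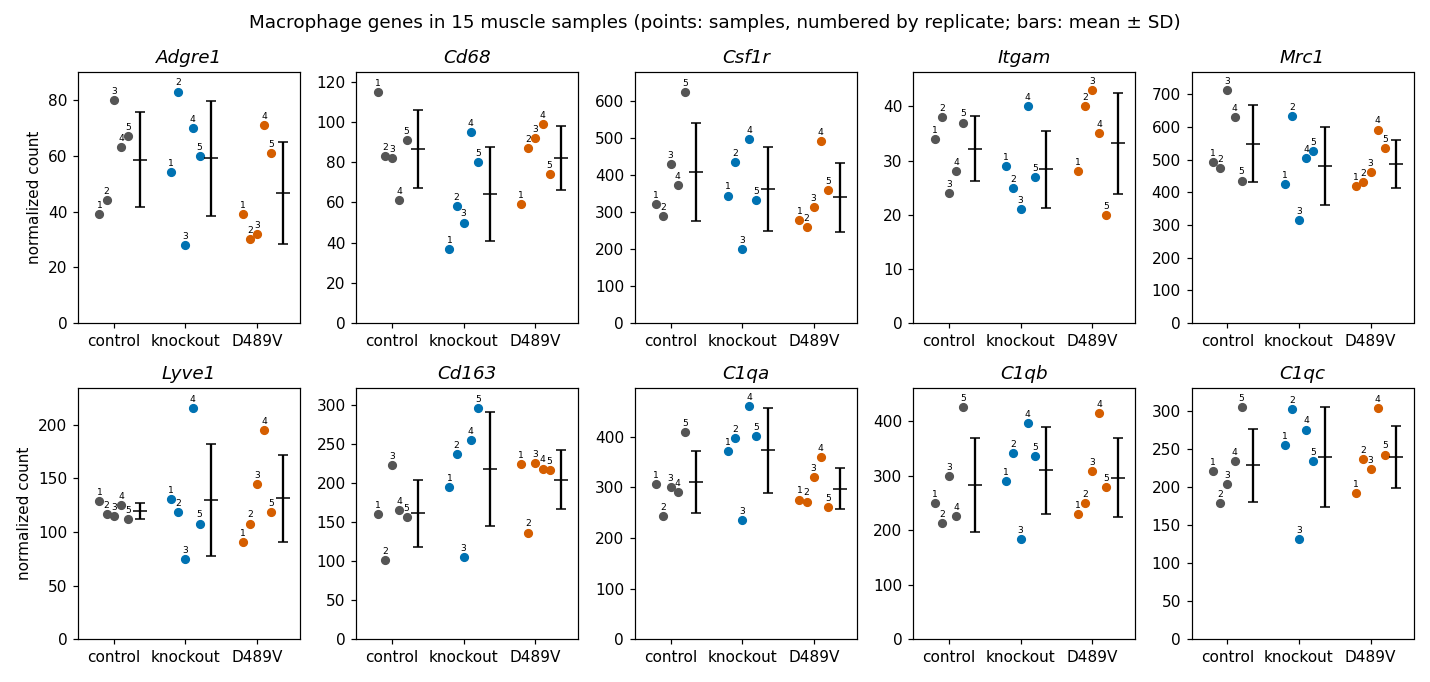
Normalized counts (vertical axis, from 0) of the 10 macrophage genes in the control, knockout and D489V samples; points are samples, numbered by replicate, and bars are group means ± SD of 5 samples. The groups overlap in every panel, knockout replicate 3 is the lowest of all 15 samples for 7 of the 10 genes, and the 5 control values of Lyve1 lie between 112 and 129.

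The general macrophage genes come first. Csf1r (ENSMUSG00000024621, chromosome 18, 61100598 to 61132149, plus strand, GRCm38) encodes the receptor on which macrophage survival depends, and lies 15536 bases beyond the end of Pdgfrb, the gene altered in these mice (chromosome 18, 61045150 to 61085061). Its normalized counts were 322, 289, 428, 373 and 624 in controls 1 to 5. In knockout they were 344, 434, 199, 496 and 333, and in D489V 277, 258, 312, 491 and 360. Control replicate 5 was the highest and knockout replicate 3 the lowest of all, and the groups overlapped over most of their range. The log2 change was -0.18 with a standard error of 0.26 in knockout against control (limma adjusted p = 0.73). It was -0.25 with a standard error of 0.22 in D489V against control (limma adjusted p = 0.768), with a 95% interval of -0.73 to 0.24, whereas Pdgfrb itself changed by -0.96 there, with an interval of -1.15 to -0.76. The intervals of these neighbours do not overlap in D489V, and the difference between the genes was not tested.

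Adgre1 (ENSMUSG00000004730, chromosome 17, 57358691 to 57483527, plus strand) encodes the adhesion receptor recognised by the F4/80 antibody, a standard label of mouse macrophages. Controls 1 to 5 held 39, 44, 80, 63 and 67 normalized counts. They were 54, 83, 28, 70 and 60 in knockout and 39, 30, 32, 71 and 61 in D489V. In D489V the first 3 replicates were at or below every control, and the other 2 lay within the range of the controls. The log2 change was -0.36 with a standard error of 0.29 in D489V against control (limma adjusted p = 0.735, exact permutation p = 0.27), and -0.03 with a standard error of 0.3 in knockout against control (limma adjusted p = 0.972).

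Cd68 (ENSMUSG00000018774, chromosome 11, 69664213 to 69666153, minus strand) encodes a glycoprotein of lysosomes and endosomes, abundant in phagocytes. Its normalized counts were 115, 83, 82, 61 and 91 in controls 1 to 5 and 37, 58, 50, 95 and 80 in knockout. In D489V they were 59, 87, 92, 99 and 74. Of the knockout samples, replicates 1, 2 and 3 lay below every control and replicates 4 and 5 among them. Its log2 change of -0.48 (standard error 0.26) in knockout against control was the greatest in size among the 10 genes in that comparison and did not pass (limma adjusted p = 0.385, exact permutation p = 0.127). The 95% interval ran from -1.05 to 0.1. Against D489V the knockout samples differed by -0.41 with a standard error of 0.25 (adjusted p by limma = 0.253).

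Itgam (ENSMUSG00000030786, chromosome 7, 128062640 to 128118491, plus strand) encodes CD11b, an integrin chain that monocytes and neutrophils carry as well as macrophages. It was the lowest of the 10 per kilobase, with normalized counts of 34, 38, 24, 28 and 37 in controls, 29, 25, 21, 40 and 27 in knockout, and 28, 40, 43, 35 and 20 in D489V. The D489V samples held both the lowest and the highest value of the 15. Its log2 change was -0.19 (standard error 0.23) in knockout against control and 0.01 (standard error 0.25) in D489V against control, where the limma adjusted p was 0.699 and 0.99. The neutrophil list, whose 10 genes include S100a9, Mmp9 and Ngp, summed to 79 to 201 in control, 47 to 156 in knockout and 72 to 874 in D489V, and none of its 4 tested genes passed in any comparison.

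The endocytic receptors follow. Mrc1 (ENSMUSG00000026712, chromosome 2, 14229392 to 14332057, plus strand) encodes the mannose receptor, which binds glycoproteins and collagen fragments for uptake. Its normalized counts were 494, 473, 712, 631 and 436 in controls 1 to 5, 425, 634, 314, 505 and 527 in knockout and 418, 431, 462, 592 and 535 in D489V. Controls 3 and 4 and knockout replicate 2 were the highest. It changed by -0.20 with a standard error of 0.19 in knockout and by -0.16 with a standard error of 0.15 in D489V on the log2 scale, where the limma adjusted p was 0.596 and 0.784.

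Lyve1 (ENSMUSG00000030787, chromosome 7, 110850607 to 110863239, minus strand) encodes a hyaluronan receptor carried by a perivascular class of resident macrophages and also by lymphatic endothelium. The controls were close together, at 129, 117, 115, 125 and 112 normalized counts, a coefficient of variation of 5.96%. The knockout samples held 131, 119, 75, 216 and 108 and the D489V samples 91, 108, 145, 195 and 119, with coefficients of variation of 40.5% and 30.8%. Both mutant groups thus spread above and below the controls, and the difference in spread was not tested. The log2 changes of 0.03 (standard error 0.23) and 0.09 (standard error 0.19) had adjusted p by limma of 0.952 and 0.911. The 6 genes of the lymphatic endothelium list, among them Flt4, Reln and Pdpn, summed to 641 to 660 in control, 601 to 714 in knockout and 575 to 920 in D489V, with Ccl21a at 0 in every sample. Their part in the spread of Lyve1 was not tested.

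Cd163 (ENSMUSG00000008845, chromosome 6, 124304656 to 124330527, plus strand) encodes the receptor for haemoglobin bound to haptoglobin. Its normalized counts were 161, 102, 223, 166 and 157 in controls 1 to 5 and 195, 238, 105, 256 and 297 in knockout. In D489V they were 225, 137, 226, 219 and 217, so that 4 of 5 samples lay within 217 to 226 and replicate 2 stood apart. It had the highest positive log2 change of the 10 genes in both comparisons with control, which share the control samples: 0.39 (standard error 0.28) in knockout and 0.36 (standard error 0.21) in D489V. Neither passed. The limma adjusted p was 0.484 and 0.632, and the exact permutation p 0.246 and 0.151. The intervals ran from -0.22 to 0.99 and from -0.10 to 0.81, so a rise of close to 2-fold in knockout lies within them.

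The genes C1qa, C1qb and C1qc lie side by side on the minus strand of chromosome 4, within 18675 bases (C1qb at 136880129 to 136886187, C1qc at 136889804 to 136893065, C1qa at 136895917 to 136898803). Since these genes varied together, the 250 bases before the RefSeq start of C1qb (chr4:136886201-136886450) and of C1qc (chr4:136892915-136893164) are shown from the minus strand of GRCm38.p6, beside those of Cd68 (chr11:69666171-69666420, minus strand), a gene with lower correlations to them over the 15 samples (r = 0.15 to 0.38). Capitals mark GAGGAA, the core bound by the myeloid factor PU.1, on either strand (TTCCTC where it lies on the other one).
C1qb: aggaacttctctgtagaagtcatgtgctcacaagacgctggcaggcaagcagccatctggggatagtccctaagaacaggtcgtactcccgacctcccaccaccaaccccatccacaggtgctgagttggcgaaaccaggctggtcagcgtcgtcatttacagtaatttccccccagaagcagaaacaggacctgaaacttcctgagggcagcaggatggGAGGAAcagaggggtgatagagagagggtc
C1qc: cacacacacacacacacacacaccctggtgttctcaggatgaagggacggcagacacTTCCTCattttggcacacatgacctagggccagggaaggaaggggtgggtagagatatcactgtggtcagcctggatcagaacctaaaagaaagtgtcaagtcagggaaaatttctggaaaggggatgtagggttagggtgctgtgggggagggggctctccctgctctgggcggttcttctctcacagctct
Cd68: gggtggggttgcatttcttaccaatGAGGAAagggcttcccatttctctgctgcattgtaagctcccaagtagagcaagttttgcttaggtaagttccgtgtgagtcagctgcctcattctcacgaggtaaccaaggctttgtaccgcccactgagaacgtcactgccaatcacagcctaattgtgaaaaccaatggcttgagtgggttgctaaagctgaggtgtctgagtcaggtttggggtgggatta
The match begins 30 bases before the start of C1qb, 193 before that of C1qc and 225 before that of Cd68. The C1qc window overlaps the gene coordinates given above, which reach 136893065, so its distance holds for the RefSeq start only. Of the 10 genes, 6 had an entry in the RefSeq promoter table, and GAGGAA was found on either strand in 5 of these, against 23.3% of all 32851 windows of the same length. Mrc1 held it at 3 places and Itgam at 2, and Cd163 was the window without it. TGANTCA, bound by AP-1, was found in 1 of the 6, Cd68, at 2 places, against 6.75% of all windows, and CACGTG, bound by MITF and related factors, in 0 of the 6, against 6.02%. GAGGAA shares no bases with the other motifs in the windows shown, and a match is a description of letters, not of binding.

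C1qa (ENSMUSG00000036887) encodes the A chain of C1q. Its normalized counts were 307, 244, 301, 291 and 409 in controls 1 to 5, 372, 397, 235, 461 and 401 in knockout and 276, 272, 321, 359 and 261 in D489V. In knockout, 4 of 5 samples lay above every D489V sample and above 4 of 5 controls, and replicate 3 lay below all 15. The log2 difference was 0.25 (standard error 0.19) against control and 0.30 (standard error 0.17) against D489V. The limma adjusted p was 0.503 and 0.213, and the exact permutation p 0.27 and 0.151. Without knockout replicate 3 the difference from D489V was 0.46 with a limma adjusted p of 0.0318. D489V against control gave -0.05 with a standard error of 0.14 (adjusted p by limma = 0.941).

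C1qb (ENSMUSG00000036905), the B chain gene, held 250, 213, 299, 227 and 427 normalized counts in controls, 291, 342, 184, 397 and 336 in knockout and 230, 250, 309, 415 and 279 in D489V. C1qc (ENSMUSG00000036896), the C chain gene, held 221, 179, 204, 234 and 306 in controls, 255, 303, 132, 276 and 235 in knockout and 193, 237, 224, 304 and 243 in D489V. Both genes were highest in control replicate 5 and lowest in knockout replicate 3. Their log2 changes lay between -0.04 and 0.13 in the 3 comparisons, with limma adjusted p of 0.785 to 0.94. In the ratio of C1qa to C1qc, the knockout samples ran from 1.31 to 1.78, the controls from 1.24 to 1.47 and the D489V samples from 1.07 to 1.43, and the groups overlapped. The ratio of Cd68 to C1qa was 0.0995 to 0.213 in knockout, 0.214 to 0.32 in D489V and 0.21 to 0.375 in control, so that knockout and D489V came next to each other without overlap, while knockout and control overlapped. These ratios were picked out of 8 after their values were seen and carry no test.

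**Figure D2:**
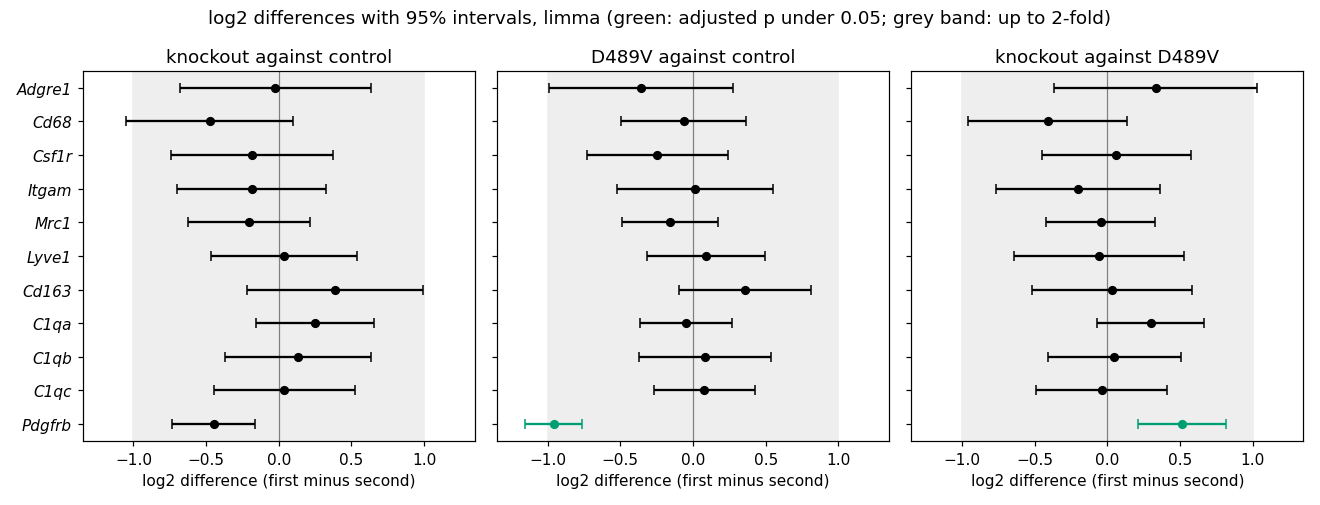
log2 differences (horizontal axis, first group minus second) of the 10 macrophage genes and Pdgfrb with 95% intervals from limma, 5 against 5 samples in each panel; green marks an adjusted p under 0.05 and the grey band covers differences up to 2-fold. The intervals of all 10 macrophage genes include 0, while Pdgfrb is past the threshold in D489V against control (-0.96) and in knockout against D489V (0.51).

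The precision of these comparisons is set by the spread between samples. In knockout against control the 10 log2 changes ran from -0.48 to 0.39 with a median of 0.004, against a median of 0.0106 over all 15234 genes tested. In D489V against control they ran from -0.36 to 0.36 with a median of -0.018, against 0.00189 over 15339 genes. In knockout against D489V they ran from -0.41 to 0.33 with a median of -0.003, against 4.02e-04 over 15299 genes. In each comparison 5 of the 10 were positive and 5 negative. The 95% intervals lay within a 2-fold difference in either direction for 9 of the 10 genes in knockout against control, 10 of 10 in D489V against control and 9 of 10 in knockout against D489V. Differences smaller than these intervals cannot be seen with 5 samples a group. The exact permutation p ran from 0.127 to 0.96, where 5 against 5 samples cannot go below 0.00794.

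**Figure D3:**
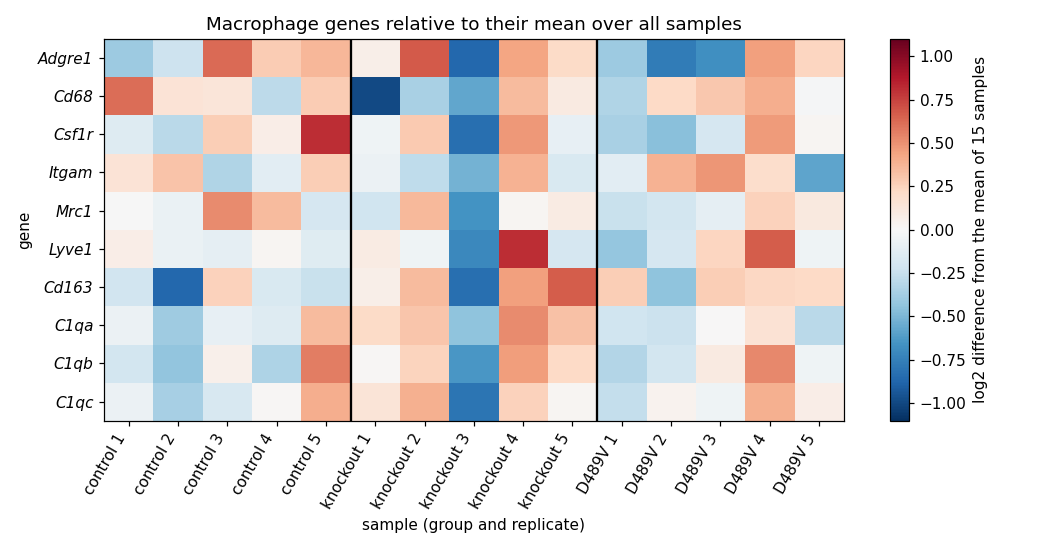
log2(value + 1) of each macrophage gene minus its mean over the 15 samples (colour; red higher, blue lower), with samples ordered by group and replicate. The column of knockout replicate 3 is blue for 10 of 10 genes, and those of knockout replicate 4 and D489V replicate 4 hold no gene below its mean.

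Some samples were high or low in most of the 10 genes at once. Knockout replicate 3 was below the mean of all 15 samples in 10 of 10 genes, with a median log2 difference of -0.68. It was the lowest of its group in 9 of 10, the exception being Cd68. Knockout replicate 4 was above the mean in all 10, with a median of 0.44 and the highest value of its group in 6, and D489V replicate 4 likewise, with a median of 0.4 and the highest value of its group in 8. Among controls, replicate 2 was below the mean in 8 of 10 genes and replicate 5 above it in 7. The 4 libraries with Glycam1 had median differences of 0.32 (control replicate 5), -0.68, 0.44 and 0.09 (knockout replicates 3, 4 and 5), and their counts of Cd79a, a B cell gene, were 1077, 374, 1072 and 297 against at most 50 elsewhere. The lymphocyte list, led by Ighm, summed to 1152 to 10399 in control, 1491 to 9762 in knockout and 1372 to 2322 in D489V. With a lymphocyte score as covariate, 0 of the 10 genes passed in any comparison. The same held without these 4 libraries. That leaves 2 knockout samples, and none of the genes had passed with all samples, so it says little about lymph node content.

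Across the 15 samples, 42 of the 45 pairs of these genes had a positive Pearson r of log2(value + 1), with a median of 0.52 and a range of -0.21 to 0.87. By permutation tests adjusted over the 45 pairs, 17 passed by Pearson r, 10 by Spearman rho and 9 by both. The 9 pairs joined Csf1r, Adgre1, Mrc1 and the C1q genes. C1qa and C1qb had r = 0.87 and rho = 0.87 (adjusted permutation p = 9e-04 and 0.00135), and C1qb and C1qc had r = 0.86 and rho = 0.82 (adjusted permutation p = 9e-04 and 0.00585). Csf1r and C1qb had r = 0.87 and rho = 0.79 (adjusted permutation p = 9e-04 and 0.00738), and Csf1r and Adgre1 had r = 0.84 and rho = 0.91 (adjusted permutation p = 0.00108 and 4.5e-04). Without the 2 samples farthest from the median of the first gene, r was 0.83, 0.78, 0.77 and 0.75 in these 4 pairs. Centred on group means it was 0.94, 0.86, 0.95 and 0.86, so r was no lower within groups.

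Cd68 and Itgam had lower correlations with most of the others. Over their 9 pairs each, the median r was 0.28 for Cd68 and 0.3 for Itgam, against 0.61 to 0.66 for Adgre1, Csf1r and the C1q genes. Cd68 and Itgam had r = 0.56 and rho = 0.65 with each other, which passed by rho alone (adjusted permutation p = 0.0697 and 0.0459). Centred on group means, Cd68 had higher r with C1qa (0.48), C1qb (0.53) and C1qc (0.31) than over all samples (0.15, 0.38 and 0.26), and without knockout replicate 3 lower r (-0.01, 0.25 and 0). Adgre1 and Itgam, both surface labels of macrophages, had r = -0.21 and rho = -0.21 (adjusted permutation p for rho = 0.519). Lyve1 and Cd163, with a median r of 0.53 and 0.52, passed by both measures in 0 of their 9 pairs each. The shared variation was smaller with libraries left out: without knockout replicate 3 the median r over the 45 pairs was 0.32, and without the 4 libraries with Glycam1 it was 0.4. Per pair, C1qa and C1qb kept r = 0.84 without knockout replicate 3, and Csf1r and C1qb r = 0.82.

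**Figure D4:**
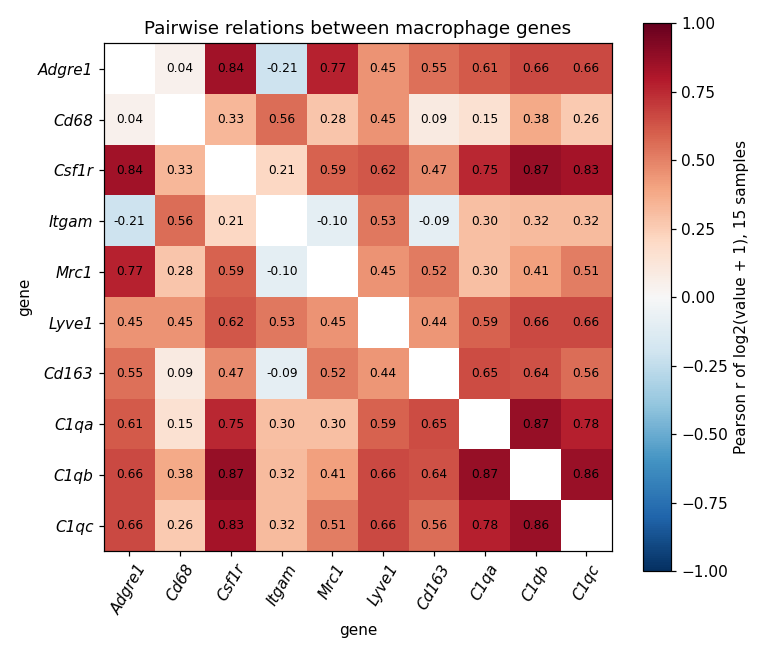
Pearson r between each pair of the 10 macrophage genes over 15 samples (log2(value + 1); red positive, blue negative, on a scale of -1 to 1). Csf1r, Adgre1 and the C1q genes form the block of higher values, up to 0.87, while Cd68 and Itgam reach at most 0.56.

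Of 11550 protein-coding genes with a mean of 50 or more, the ones whose profile over the 15 samples was most like C1qa were Sulf1 (r = 0.93), Zfpm1 (0.88) and Hps4 (0.85). For Csf1r they were Sulf1 (0.85), Naaa (0.84) and Enpp2 (0.83), and for Lyve1 Spon1 (0.78), Fcgr3 (0.74) and Entpd1 (0.74). Cd163 was most like Spock2 (0.9), Agfg2 (0.86) and Ccdc80 (0.86), and Itgam most like Zswim3 (0.87), March9 (0.81) and Nod1 (0.81). These genes were picked as the highest of all and carry no test. Fcgr3 among them is an Fc receptor gene of myeloid cells, and Sulf1 was found for both C1qa and Csf1r.

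Genes that act around the macrophage genes were read from 16 lists of 127 genes, of which 98 were tested. None passed in knockout against control or in D489V against control by limma, where 15 and 16 had an unadjusted p under 0.05 (15.3% and 16.3%, against 15.1% and 9.43% of all genes). In knockout against D489V 24 passed, 3 higher and 21 lower in knockout, or 24.5% against 20.8% of all genes. Of 16 tested general macrophage genes 2 were higher, and of 11 tested resident ones 1 was higher and 1 lower, where 10.5% of all genes were higher and 10.3% lower, so these counts are near the background. Lgmn, encoding a lysosomal protease, was 1309 ± 212 in knockout and 949 ± 86.2 in D489V (SD, n = 5), a log2 difference of 0.45 (limma adjusted p = 0.0219). Cbr2, encoding a carbonyl reductase, was 806 ± 228 and 481 ± 85.9 (SD, n = 5), a log2 difference of 0.71 (limma adjusted p = 0.0276), and the groups overlapped for both genes. Leaving out the 4 libraries with Glycam1 leaves 2 knockout samples, and 586 of all genes were called, against 3181 with them. The effect of the smaller group on the calls was not tested. In that fit Cbr2 passed, and Lgmn and Ltc4s did not. Ltc4s, of leukotriene synthesis, was the resident-list gene lower in knockout, by a log2 difference of -1.65 (limma adjusted p = 0.00508). Lyz2 and Maf, the other abundant genes of the general list, had log2 differences of 0.21 and -0.11 (limma adjusted p = 0.617 and 0.533). Maf averaged 10600 normalized counts over all samples, against 369 for Csf1r, and which cells its RNA came from was not tested. Gas6 and Stab1 of the resident list had 0.18 and -0.39 (limma adjusted p = 0.0891 and 0.116).

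The partners of C1q moved where the C1q genes did not pass. In knockout against D489V, 4 of 9 tested complement partners were lower in knockout and 0 higher, against 10.3% and 10.5% of all genes. They were C1ra and C1s1, the genes of the proteases that join C1q in the first component of complement, C2, cleaved by them, and C3, the central component of the cascade. C1ra was 356 ± 54.8 in knockout and 516 ± 31 in D489V (SD, n = 5), and C1s1 was 1265 ± 244 and 1856 ± 171 (SD, n = 5). Their log2 differences were -0.55 and -0.57, the limma adjusted p was 0.0112 and 0.0156, and the groups did not overlap. C3 was 1668 ± 644 and 4125 ± 1863 (SD, n = 5), a log2 difference of -1.25 (limma adjusted p = 0.0217), and C2 differed by -0.70 (limma adjusted p = 0.0403). C1qa, C1qb and C1qc had 0.30, 0.05 and -0.04 in the same comparison. Whether the partners and C1q differ from each other was not tested. Serping1, the inhibitor of those proteases, had -0.30 (limma adjusted p = 0.135). Without knockout replicate 3 or without D489V replicate 3, 3 of the 9 partners passed, all but C2. Without the 4 libraries with Glycam1, which leaves 2 knockout samples, 1 passed, C4b. Calls over all genes fell as well, from 3181 to 2273 without knockout replicate 3 and 1989 without D489V replicate 3. They fell to 586 without the 4 libraries.

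**Figure D5:**
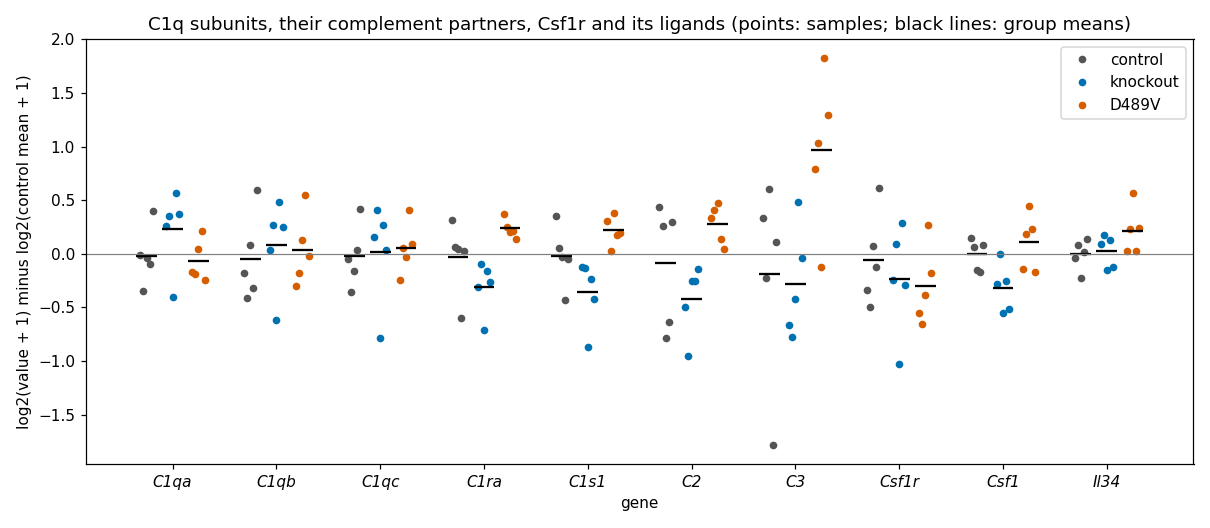
log2(value + 1) of each sample minus log2 of the control mean + 1 (vertical axis) for the C1q subunits, the complement partners C1ra, C1s1, C2 and C3, the receptor gene Csf1r and its ligand genes Csf1 and Il34; points are samples and black lines group means. Knockout samples lie below all D489V samples for C1ra, C1s1 and C2, and the groups overlap for C1qa, C1qb, C1qc and Csf1r.

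Of the ligands of CSF1R, Csf1 was 535 ± 52.8 in control, 433 ± 68.3 in knockout and 587 ± 107 in D489V (SD, n = 5). The log2 difference of -0.43 between knockout and D489V had a limma adjusted p of 0.0491, and was past the threshold neither without knockout replicate 3 nor without D489V replicate 3. Il34 was 171 ± 16.5, 175 ± 18.4 and 201 ± 32.5 in the same order (SD, n = 5), with a log2 difference of -0.19 (limma adjusted p = 0.312). Csf2ra, a receptor chain for the related factor GM-CSF, differed by -0.69 (limma adjusted p = 0.0342), and Csf1r itself by 0.06 (limma adjusted p = 0.869). Tgfb1 and Csf2rb of the same list had -0.21 and -0.64 (limma adjusted p = 0.34 and 0.141). In all, 2 of the 6 genes of this list passed, both lower in knockout, where 10.3% of all genes passed as lower. Whether the list differs from all genes was not tested. Without knockout replicate 3 or without D489V replicate 3, 0 genes of the list passed, while calls over all genes fell from 3181 to 2273 and 1989. Without the 4 libraries with Glycam1, which leaves 2 knockout samples, Csf1 and Csf2ra did not pass, and 1 gene of the list, Csf2rb, did, lower in knockout.

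Of the genes around CD163, Hp, encoding the haptoglobin that presents haemoglobin to it, was 1237 ± 844 in control, 975 ± 431 in knockout and 2894 ± 1106 in D489V (SD, n = 5), a log2 difference of -1.63 between knockout and D489V (limma adjusted p = 0.0256). Ftl1, the ferritin light chain gene, differed by -0.59 (limma adjusted p = 0.00778), and Slc40a1, the iron exporter, by 0.13 (limma adjusted p = 0.686). Of the 5 tested genes 2 passed, both lower in knockout, where 10.3% of all genes passed as lower. Whether the list differs from all genes was not tested. Cd163 differed by 0.03 (limma adjusted p = 0.938). Without the 4 libraries with Glycam1, which leaves 2 knockout samples, 0 of these 5 genes passed. That fit called 586 of all genes, against 3181 with all samples.

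Hp and C3 are also expressed by fat cells. The adipocyte list, led by Cfd, Plin1 and Adipoq, summed to 1728 to 30420 in control, 5854 to 9487 in knockout and 15336 to 55024 in D489V. Of its 6 genes 5, Pparg and Cidec included, passed as lower in knockout than in D489V, against 10.3% of all genes. The blood endothelium list, led by Cdh5, Pecam1 and Kdr, summed to 11167 to 15766, 6761 to 10523 and 12427 to 14231. All 5 genes, Tek and Emcn included, passed as lower in knockout than in D489V, against the same 10.3% of all genes. The part of fat and vessels in the complement, CSF1 and haptoglobin results was not tested. Without the 4 libraries with Glycam1, which leaves 2 knockout samples, 0 blood endothelial and 2 adipocyte genes (Cfd and Cidec) passed. Over all genes the number called fell from 3181 to 586, and the effect of the smaller group was not tested.

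Genes of recruited or activated cells were read against the 20.8% of all genes that passed in knockout against D489V. Of 2 tested monocyte genes, Ccr2 and Plac8, 0 passed, and Ccr2 was 55.4 ± 23, 62.6 ± 20 and 67 ± 20.3 in control, knockout and D489V (SD, n = 5). Of 5 tested activation genes 1 passed, Nos2, the gene of inducible nitric oxide synthase, with 122 ± 59 in knockout and 264 ± 44.2 in D489V (SD, n = 5) and a log2 difference of -1.22 (limma adjusted p = 0.0118), while Retnla and Spp1 had -0.82 and -1.20 (limma adjusted p = 0.0797 and 0.0943). The cells that the RNA of Nos2 came from were not tested. Of the monocyte chemokines 0 of 3 passed, with Ccl6, Ccl9 and Ccl24 at log2 differences of 0.11, 0.31 and 0.26. Of 8 tested antigen presentation and dendritic genes 1 passed, Zbtb46, lower in knockout by a log2 difference of -0.42 (limma adjusted p = 0.0148). Zbtb46 averaged 324 in control, where Flt3, Xcr1, Clec9a and Itgax of the same list averaged 16, 6.6, 11.4 and 20.2. Which cells the RNA of Zbtb46 came from was not tested. Cd74, H2-Aa and H2-Ab1, which B cells share, had 1.06, 1.13 and 1.04 (limma adjusted p = 0.133, 0.0999 and 0.127). None of the 4 tested neutrophil, 6 lymphocyte, 5 lymphatic, 6 muscle fibre and 1 venule genes passed. Without the 4 libraries with Glycam1, which leaves 2 knockout samples, 2 of 4 tested lymphocyte genes passed, lower in knockout. Calls over all genes were 586 there, against 3181 with all samples. In that fit Retnla passed in place of Nos2, and Zbtb46 did not pass.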

How the data were processed

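Poly(A) RNA of skeletal muscle was sequenced from 15 mice, with groups and replicate numbers taken from the labels. The authors deposited normalized counts as whole numbers, treated here as a score because rounded values are not read counts. The submitters' processing notes list Trim Galore 0.6.0, STAR 2.7.0e, DESeq2 1.26.0 and GRCm38, with no roles. The counting tool, annotation and strand setting are not given in the sources used here. There were 2 tables of 55536 genes, each with the same 5 control columns, joined by gene ID. The median ratio of samples to their geometric mean was 1.0069 to 1.0097, so knockout and D489V were compared directly. Names and coordinates come from GENCODE M21, matched for 55536 IDs, and promoter sequences from RefSeq (GRCm38.p6).

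R 4.3.3 and limma 3.58.1 were used for the comparisons. Each was fitted to log2(value + 1), with a trended variance prior and two-sided tests. Genes needed 10 or more in at least 5 of 10 samples. Fold changes on this scale understate those of low genes. All 10 macrophage genes passed this filter in each comparison. The fit was tested on simulated data. Exact permutation tests were two-sided, and correlations used 100000 permutations (two-sided). Python 3.11.15 with numpy 2.4.6 was used. The genes named are the 10, Pdgfrb, the 3 most abundant of each list, any list gene past the threshold, and the 3 genes most like C1qa, Csf1r, Lyve1, Cd163 and Itgam. Il34, C4b, Flt3, Xcr1, Clec9a, Itgax, Xist and the ratios were named after their values were seen. The members and lists were chosen with earlier results of these data known. The read depth is unknown from rounded normalized values. Alternatives changed the pseudocount, filter, scaling, weights, samples fitted, replicate block and lymphocyte covariate, and left out libraries. Calls per list without single libraries were added after seeing the data. Values of some genes that the rule names are not reported here.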

Additional observations from a re-analysis of the deposited data

Results flagged for a closer look

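In 33 groups of 5 values on the log2 scale, 1 held a sample far from the others, where chance gives about 1 in 20. D489V replicate 2 held 137 normalized counts of Cd163, a log2 value of 7.11, against 7.77 to 7.83 in the other D489V samples, a gap of 0.919 of the group's range, above 0.71. Without it the log2 change of Cd163 in D489V against control was the highest of those fits, at 0.49. Pdgfrb differed between the mutant groups, by a log2 difference of 0.51 in the direct comparison.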

How the results depend on the processing

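Of 627 values of the 10 genes under other settings, 568 kept their direction and side of the threshold, 1 passed it (C1qa in knockout against D489V without knockout replicate 3) and 58 changed sign, none of them past it. No other setting called any of the 10 genes; leaving out 1 library, the number called in knockout against D489V was 0 to 1. The cause of these changes was not tested.

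In knockout against control, the log2 changes that changed sign were Lyve1 (-0.026) and C1qc (-0.021) with upper-quartile rescaling. Adgre1 was 0.10 with quantile normalization, 0.028 with array weights, 0.0099 with the lymphocyte covariate and 0.30 without the 4 libraries with Glycam1, where Csf1r was 0.15. With 1 library left out in turn, Adgre1 ran from -0.17 to 0.22, Csf1r from -0.31 to 0.015, Lyve1 from -0.17 to 0.21 and C1qc from -0.058 to 0.24.

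In D489V against control, Itgam was -0.035 with quantile normalization and C1qa 0.055 without the 4 libraries. With 1 library left out, Cd68 ran from -0.18 to 0.047, Itgam from -0.088 to 0.18, Lyve1 from -0.065 to 0.21, C1qa from -0.13 to 0.055, C1qb from -0.046 to 0.24 and C1qc from -0.011 to 0.19.

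In knockout against D489V, Cd163 was -0.015 with upper-quartile rescaling, and Lyve1 0.046 and C1qc 0.0215 with quantile normalization. Mrc1, Lyve1 and C1qc were 0.061, 0.10 and 0.038 with array weights. Mrc1 and C1qc were 0.0079 and 0.053 with the lymphocyte covariate, and 0.10 and 0.23 without the 4 libraries. With 1 library left out, Csf1r ran from -0.067 to 0.26, Mrc1 from -0.15 to 0.10, Lyve1 from -0.26 to 0.12, Cd163 from -0.11 to 0.27, C1qb from -0.051 to 0.23 and C1qc from -0.14 to 0.16.

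Over all genes, 1 was called in knockout against control, and 3 after quantile normalization, 3 after upper-quartile rescaling, 16 with a fit on all 15 samples, 3 without the 4 libraries, and 1 to 7 with 1 library left out (7 without knockout replicate 2). In D489V against control 9 were called, and 86 with array weights, 19 with pseudocount 5, 16 after quantile normalization, 4 among genes averaging 50 or more, 23 after upper-quartile rescaling, 1 with all 15 samples, 23 with the lymphocyte covariate, and 2 to 26 with 1 library left out (26 without D489V replicate 3). In knockout against D489V 3181 were called, and 1852 with the lymphocyte covariate, 586 without the 4 libraries, and 1398 to 3686 with 1 library left out (1398 without D489V replicate 1).

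A replicate block gave 1, 7 and 2208 called genes in the 3 comparisons, none of them among the 10 (0, 0 and 0). Same-numbered samples correlated at -0.21 to 0.24, -0.40 to 0.39 and -0.11 to 0.10, and 2, 2 and 1 of 5 correlated best with their own number, so the numbers were not taken to pair the samples.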
